A study of Mus musculus with 8 samples.

Results

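The IMPDH and purine nucleotide synthesis enzymes considered here are encoded by 10 mouse genes, Impdh1, Impdh2, Gmps, Gmpr, Gmpr2, Hprt, Ppat, Gart, Paics and Atic. They were selected by name: a probe set counted as a member when its RefSeq transcript belongs to 1 of these genes, and probe sets with identical values counted once. Of the 10 genes, 9 had a value profile, among 18172 distinct profiles given by 22523 probe sets. Each of the 9 had a single profile. No probe set was named as Ppat, the amidophosphoribosyltransferase of the first committed step, so it was not analysed here. The values of Impdh2 and of Gmpr were each shared with 1 probe set of a model transcript that has no gene name here.

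RNA of 3 engineered lines of p53-null mouse fetal fibroblasts was measured on 8 Affymetrix whole-genome mouse arrays. Ind-8 cells (ASYM, 3 arrays) carry a mouse p53 cDNA under a modified human metallothionein promoter that zinc switches on, and in zinc they divide asymmetrically. Con-3 cells (SYM, 3 arrays) carry no p53 cDNA and stay p53-null. The study's methods call Con-3 a vector control, and its results describe such controls as transfected with the promoter vector alone. The sample labels call Con-3 the congenic line from which Ind-8 came. tI-3 cells (p53SYM, 2 arrays) were derived from Ind-8, keep the inducible p53, and also carry a constitutively expressed IMPDH II cDNA. All cultures were held in 65 µM ZnCl2 for 48 h with 5 µg/ml puromycin, so no array shows a line without zinc. G418 was added for tI-3 alone, and the dose differs between the sources, 1 mg/ml in the methods but 1 µg/ml in the labels. Each state is a single line, so a line's own history and its state cannot be told apart. The A comparison set Ind-8 against Con-3, the B comparison Ind-8 against tI-3, and the C comparison tI-3 against Con-3. The A and B comparisons share the Ind-8 arrays, A and C share the Con-3 arrays, and B and C share the tI-3 arrays.

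Purine nucleotides are built stepwise on phosphoribosyl pyrophosphate (PRPP) until inosine monophosphate (IMP) is complete. IMP then goes to adenine nucleotides or, through IMP dehydrogenase and GMP synthase, to guanine nucleotides. IMP dehydrogenase sets the rate of the guanine branch, its type II form is the one usually raised in proliferating cells, and p53 is known to lower it in fibroblasts. The comparisons therefore ask how transcripts of this route stand in cells with restored p53, with and without an added IMPDH II cDNA.

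Genes that check the labels were read first. Cdkn1a, a direct p53 target that encodes the inhibitor p21, averaged 9.66 ± 0.066 (log2 mean and SD, n = 3) in Ind-8, 5.86 ± 0.16 (SD, n = 3) in Con-3 and 7.44 ± 0.15 (SD, n = 2) in tI-3. Mdm2, the ubiquitin ligase that p53 induces, had means of 10.90, 8.90 and 9.62 in the same order. Both targets were thus high in Ind-8, intermediate in tI-3 and low in Con-3. The Trp53 probe set rose in Ind-8 over Con-3 by 0.53 (limma adjusted p = 0.0018) and in tI-3 over Con-3 by 0.39 (limma adjusted p = 0.0141). The latter call was lost with the hybridization-control block described below and without tI-3 replicate 2 (limma adjusted p up to 0.106). Which part of the gene the lines lack, and whether the probes read the p53 cDNA, is not given in the sources used here, so this probe set checks nothing by itself. The metallothionein genes Mt1 and Mt2, which respond to zinc, lay between 12.94 and 13.95 on all 8 arrays. Mt2 was lower in tI-3 than in Con-3, with line means of 13.07 and 13.45 (−0.39, limma adjusted p = 0.0242), a call that was lost with quantile normalization, with that block, and without Con-3 replicate 2 or tI-3 replicate 2 (lowest to highest limma adjusted p over the alternatives 0.00812 to 0.288). Mt1 was not called in any comparison.

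The cells were checked against fibroblast markers. Of 10 markers, 9 had a mean above 4.29, the 25th percentile of all profiles, and 8 had a mean above the median profile at 6.16. Vim, S100a4, Fn1, Col1a2 and Col1a1 had means from 11.80 to 13.89. Thy1 was at the dim end, with a mean of 4.16. The mean over the 10 markers was between 9.91 and 10.20 on the Ind-8 arrays, between 9.77 and 9.96 on the Con-3 arrays, and 9.57 and 9.49 on the tI-3 arrays. Of the 10 markers, limma called 2 higher and 1 lower in A, 5 higher and 1 lower in B, and 3 higher and 3 lower in C. Col3a1, Pdgfra and Col1a1 were higher in Ind-8 than in tI-3 (2.42, 1.51 and 1.49) and lower in tI-3 than in Con-3 (−2.68, −1.04 and −1.06). Pdgfrb was instead lowest in Con-3, with line means of 9.36 in Ind-8, 8.98 in Con-3 and 9.30 in tI-3. Fn1 was highest in Ind-8 and lowest in Con-3 (0.70 in A, 0.42 in B and 0.28 in C), Vim was higher in Ind-8 than in tI-3 (0.39), and the dim Thy1 was lowest in Ind-8 and highest in tI-3 (−0.30 in A, −0.67 in B and 0.37 in C). The call of Fn1 in C was lost in 12 of 17 alternative fits, and those of Thy1 in A and C in 11 and 6 of 16. The B call of Vim was lost with quantile normalization (0.11, limma adjusted p = 0.365) and without tI-3 replicate 2 (0.30, limma adjusted p = 0.116). With the hybridization-control block the B calls of Col3a1, Fn1, Vim and Thy1 were lost, and without tI-3 replicate 1 the C call of Col1a1. Over all alternative fits the B differences ranged from 2.16 to 2.86 for Col3a1 and from 0.34 to 0.46 for Fn1. They ranged from 0.11 to 0.49 for Vim and from −0.75 to −0.48 for Thy1. Of 14 markers of epithelial, endothelial, leukocyte, muscle and neural cells, 7 had a mean above the 25th percentile and none above the median profile, although Kdr, at 6.15, was close to it. Of these, Kdr was lower in Ind-8 than in Con-3 (−0.32) and tI-3 (−0.76) and higher in tI-3 than in Con-3 (0.44), Cd3e was lower in Ind-8 than in tI-3 (−0.43) and higher in tI-3 than in Con-3 (0.42), and Sox10 was lower in Ind-8 than in tI-3 (−0.48), while the other 11 were not called. All these calls of Kdr, Cd3e and Sox10 were lost with the hybridization-control block, and that of Kdr in A in 7 of 17 alternative fits. The part of these differences in the members' values was not tested.

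Some arrays stood apart in their control probe sets. The 18 hybridization-control probe sets, which read bacterial and phage transcripts added to the sample, averaged between 9.88 and 10.00 on the Ind-8 arrays and on Con-3 replicates 1 and 2, against 10.44 on Con-3 replicate 3 and 10.24 and 10.46 on the tI-3 arrays. The 3′ probe set for 18S ribosomal RNA read 11.38 on Con-3 replicate 3 and between 6.59 and 7.67 on the 7 other arrays. The calls of members and the counts of the lists around them are given below also without Con-3 replicate 3 and with the hybridization-control level, high or low, as a block. With that block the A comparison equals the one without Con-3 replicate 3, and the C comparison sets tI-3 against Con-3 replicate 3 alone. The B comparison rests on that array too, because the Ind-8 and tI-3 arrays lie in different blocks and the shift between blocks is read from Con-3 replicate 3 against Con-3 replicates 1 and 2.

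**Figure D1:**
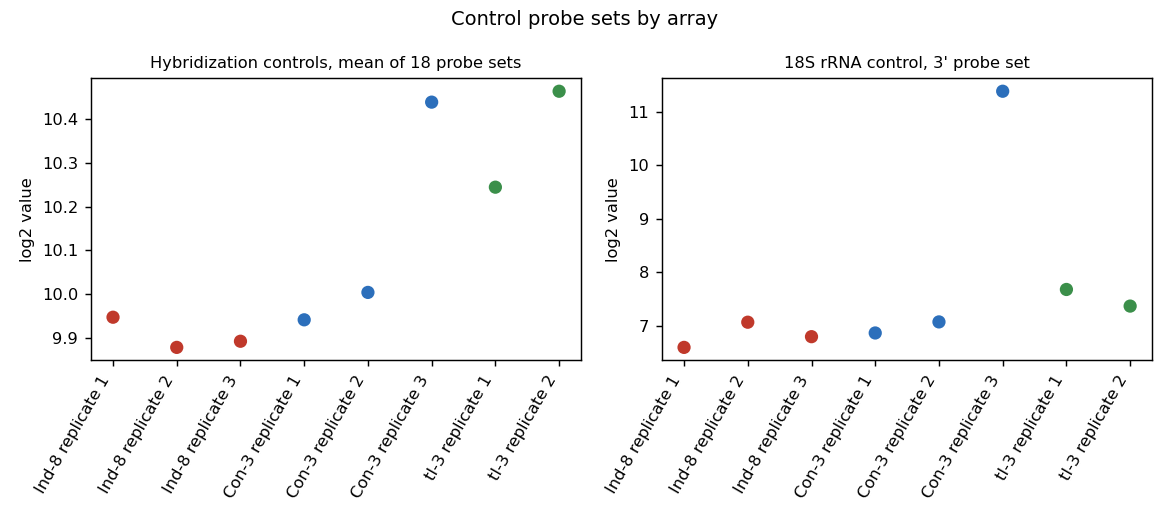
Control probe sets on each array, log2 values on the vertical axes, with points in red for Ind-8, blue for Con-3 and green for tI-3. Left, the mean of 18 hybridization-control probe sets, high on Con-3 replicate 3 (10.44) and on both tI-3 arrays (10.24 and 10.46); right, the 3′ probe set for 18S ribosomal RNA, which stands at 11.38 on Con-3 replicate 3.

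Sequence upstream of the members was read from RefSeq promoter windows of the assembly GRCm38.p6. All 10 genes had a window, 11 windows in all because Impdh1 has 2 annotated starts. The 250 bases before each start were searched on both strands for the E-box CACGTG, a sequence that MYC and related factors can bind and that reads the same on both strands, for the GC box GGGCGG and for the CCAAT box CCAAT. The E-box occurred in 3 of the 10 genes, Impdh2, Paics and Atic, against 6.02% of all 32851 promoter windows of this length. The GC box occurred in 9 of the 10, all but Gmpr2, against 32.7% of all windows, and the CCAAT box in 3, Gart, Paics and Atic, against 33.8%. The windows of Impdh2 and Atic are shown because these are the members that passed the test in the A comparison, and capitals mark the E-box. Impdh2 lies at chr9:108560186-108560435 and Atic at chr1:71556906-71557155, both on the plus strand and in no other annotated gene, and the last base printed is the one before the start.
Impdh2: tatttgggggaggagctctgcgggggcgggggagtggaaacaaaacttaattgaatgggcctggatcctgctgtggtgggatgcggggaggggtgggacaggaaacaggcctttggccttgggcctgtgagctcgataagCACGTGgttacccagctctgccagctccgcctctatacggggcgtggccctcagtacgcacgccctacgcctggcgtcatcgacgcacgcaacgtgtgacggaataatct
Atic: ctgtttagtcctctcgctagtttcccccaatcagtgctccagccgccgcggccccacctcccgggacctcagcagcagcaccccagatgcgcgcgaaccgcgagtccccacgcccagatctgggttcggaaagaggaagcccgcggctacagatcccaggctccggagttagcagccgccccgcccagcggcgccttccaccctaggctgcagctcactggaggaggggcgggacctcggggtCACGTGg
The E-box of Impdh2 begins 110 bases before the start and that of Atic 7 bases before it. That of Paics begins 203 bases before its start, inside Ppat, because the starts of Paics and Ppat lie 276 bases apart on opposite strands of chromosome 5 and each gene runs over the start of the other. A match is a description of the letters and no evidence of binding.

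Impdh2 encodes the type II IMP dehydrogenase. Its log2 values were 12.16, 12.19 and 12.22 on the Ind-8 arrays, 12.51, 12.56 and 12.53 on the Con-3 arrays, and 12.34 and 12.38 on the tI-3 arrays. All Ind-8 arrays were below both tI-3 arrays, and those were below all Con-3 arrays, with no overlap between any of the lines. Separation of 2 lines was common on these arrays. Over all 18172 profiles every Ind-8 array lay above every Con-3 array in 16.3% and below in 21.5%, every Ind-8 array above every tI-3 array in 26.3% and below in 33.8%, and every tI-3 array above every Con-3 array in 25.7% and below in 26.6%. The whole order of Impdh2, a share counted after its values were seen, was that of 1.98%. The line means were 12.19 ± 0.033 (SD, n = 3), 12.53 ± 0.022 (SD, n = 3) and 12.36 ± 0.022 (SD, n = 2). In the A comparison Impdh2 fell by 0.34 (SE 0.079, limma adjusted p = 0.0112), which leaves 0.789 of the Con-3 level. The differences that involve tI-3 were about as large as each other, −0.17 in B (95% interval −0.36 to 0.025, limma adjusted p = 0.163) and −0.17 in C (95% interval −0.37 to 0.023, limma adjusted p = 0.179), and neither passed. The line with the added IMPDH II cDNA thus had no higher Impdh2 reading than the p53-null line. The paper states, from earlier work, that IMPDH II is expressed at a higher level in the p53SYM than in the SYM state. The species and extent of the added cDNA are not given in the sources used here. The mouse probe set may therefore not read the transgene, and its values cannot check that statement. Without Con-3 replicate 3 Impdh2 still passed in the A comparison, at −0.34 (limma adjusted p = 0.032).

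Impdh1 encodes the type I enzyme, which catalyses the same step. It read 8.09, 7.84 and 8.19 in Ind-8, 7.92, 7.99 and 8.03 in Con-3, and 8.05 and 8.15 in tI-3. The Ind-8 arrays spanned the range of both other lines, and both tI-3 arrays were above the Con-3 arrays by little. None of the 3 differences passed, at 0.063 in A (95% interval −0.17 to 0.29, limma adjusted p = 0.718), −0.057 in B (95% interval −0.31 to 0.20, limma adjusted p = 0.733) and 0.12 in C (95% interval −0.14 to 0.38, limma adjusted p = 0.487).

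Gmps encodes GMP synthase, the enzyme after IMP dehydrogenase on the way to guanine nucleotides. Its values were 11.15, 11.19 and 11.31 in Ind-8, 11.19, 11.19 and 11.20 in Con-3, and 11.57 and 11.46 in tI-3. The tI-3 arrays were above all others, as tI-3 was over Ind-8 in 33.8% and over Con-3 in 25.7% of all profiles, while Ind-8 and Con-3 overlapped. Gmps was lower in Ind-8 than in tI-3, with a change of −0.30 (SE 0.095, limma adjusted p = 0.036), and higher in tI-3 than in Con-3, with a change of 0.32 (SE 0.095, limma adjusted p = 0.0302). Between Ind-8 and Con-3 the difference was 0.022 (95% interval −0.17 to 0.21, limma adjusted p = 0.888). Neither call was firm. In C it was lost without any 1 of the Con-3 or tI-3 arrays, with 0.33 without Con-3 replicate 3 (limma adjusted p = 0.0548) and 0.27 without tI-3 replicate 1 (limma adjusted p = 0.159) as the extremes in p. In B it was lost without Ind-8 replicate 1 or 2, Con-3 replicate 2 or either tI-3 array, with −0.24 without tI-3 replicate 1 (limma adjusted p = 0.17), and with only the 2 lines compared in the fit (limma adjusted p = 0.0604).

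Gmpr and Gmpr2 encode the 2 GMP reductases, which return GMP to IMP and so run against the guanine branch. Gmpr2 read 8.86, 8.63 and 8.75 in Ind-8, 8.74, 8.73 and 8.64 in Con-3, and 8.37 and 8.13 in tI-3. Both tI-3 arrays were below all arrays of the other lines, which overlapped; tI-3 lay wholly below Ind-8 in 26.3% and below Con-3 in 26.6% of all profiles. Gmpr2 was higher in Ind-8 than in tI-3 by 0.49 (SE 0.11, limma adjusted p = 0.00879), and it fell by 0.45 in tI-3 against Con-3 (SE 0.11, limma adjusted p = 0.0134). Gmpr read 6.44, 6.61 and 6.71 in Ind-8, 6.26, 6.76 and 6.40 in Con-3, and 6.15 and 6.03 in tI-3. Here too the tI-3 arrays were the lowest, and the Con-3 arrays spread over the whole range of Ind-8. Gmpr was higher in Ind-8 than in tI-3 by 0.49 (SE 0.15, limma adjusted p = 0.0287), and its C difference of −0.38 did not pass (95% interval −0.71 to −0.059 before adjustment, limma adjusted p = 0.0804). Neither reductase passed in the A comparison, with differences of 0.11 for Gmpr (limma adjusted p = 0.605) and 0.042 for Gmpr2 (limma adjusted p = 0.807). Without tI-3 replicate 2, the lower array for both genes, the B differences were 0.43 for Gmpr (limma adjusted p = 0.172) and 0.37 for Gmpr2 (limma adjusted p = 0.095), and the C difference of Gmpr2 was −0.33 (limma adjusted p = 0.136). The B call of Gmpr was also lost without tI-3 replicate 1 (limma adjusted p = 0.0685), Ind-8 replicate 2 (0.0694) or Ind-8 replicate 3 (0.074), and its C difference passed without Con-3 replicate 1, at −0.49 (limma adjusted p = 0.0384). Among the line means, tI-3 thus had the highest for Gmps and the lowest for both reductases, although the C difference of Gmpr did not pass.

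**Figure D2:**
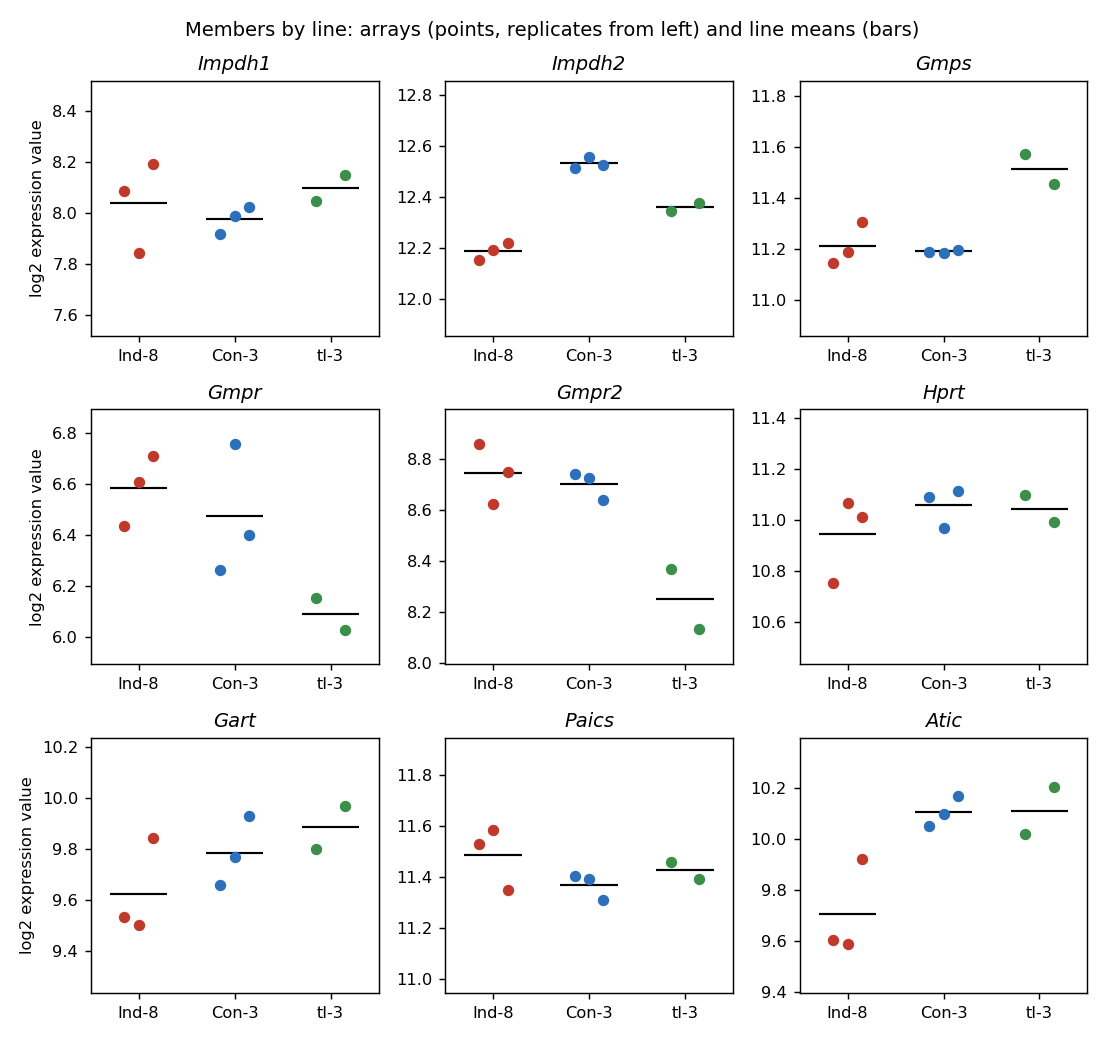
Log2 expression value (vertical axis, each panel spanning 1 log2 unit) of the 9 measured members on every array, points for the arrays of Ind-8 (red), Con-3 (blue) and tI-3 (green) and bars for line means. Impdh2 separates the 3 lines, Gmps is highest and Gmpr and Gmpr2 are lowest in tI-3, and Atic is lowest in Ind-8.

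Gart, Paics and Atic encode multifunctional enzymes of the route from PRPP to IMP. Atic, which carries out the last steps to IMP, read 9.61, 9.59 and 9.92 in Ind-8, 10.05, 10.10 and 10.17 in Con-3, and 10.02 and 10.20 in tI-3. Every Ind-8 array was below every array of the other lines, although replicate 3 came close to them, and Con-3 and tI-3 overlapped. Over all profiles Ind-8 lay wholly below Con-3 in 21.5% and below tI-3 in 33.8%. Atic fell by 0.40 in the A comparison (SE 0.11, limma adjusted p = 0.0253) and by 0.40 in the B comparison (SE 0.12, limma adjusted p = 0.0306). The C difference was 0.0038 (95% interval −0.27 to 0.28, limma adjusted p = 0.985). In A the call was lost without Ind-8 replicate 1 (limma adjusted p = 0.0846), Ind-8 replicate 2 (0.0957), Con-3 replicate 2 (0.0679) or Con-3 replicate 3 (0.0817). In B it was lost without Ind-8 replicate 1 (limma adjusted p = 0.0862), Ind-8 replicate 2 (0.0893) or tI-3 replicate 2 (0.211), and with only the 2 lines compared in the fit (0.0513).

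Gart, which acts at several earlier steps, read 9.53, 9.50 and 9.84 in Ind-8, 9.66, 9.77 and 9.93 in Con-3, and 9.80 and 9.97 in tI-3. The lines overlapped, with Ind-8 replicate 3 among the arrays of the other lines. Its differences were −0.16 in A (95% interval −0.42 to 0.10), −0.26 in B (95% interval −0.55 to 0.031) and 0.10 in C (95% interval −0.19 to 0.39), and none passed (limma adjusted p from 0.154 to 0.618). Paics, whose start neighbours that of Ppat, read 11.53, 11.58 and 11.35 in Ind-8, 11.40, 11.39 and 11.31 in Con-3, and 11.46 and 11.39 in tI-3. It was the only member of the 3 whose mean was highest in Ind-8, an order that quantile normalization turned against tI-3, and the lines overlapped. Its differences were 0.12 in A (95% interval −0.084 to 0.32), 0.062 in B (95% interval −0.17 to 0.29) and 0.057 in C (95% interval −0.17 to 0.28), and none passed (limma adjusted p from 0.412 to 0.722).

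Hprt encodes the salvage enzyme that joins hypoxanthine or guanine to PRPP. It read 10.75, 11.07 and 11.01 in Ind-8, 11.09, 10.97 and 11.12 in Con-3, and 11.10 and 10.99 in tI-3. The lines overlapped, and Ind-8 replicate 1 was the lowest array. None of its differences passed, at −0.11 in A (95% interval −0.34 to 0.12), −0.10 in B (95% interval −0.36 to 0.16) and −0.012 in C (95% interval −0.27 to 0.24), with limma adjusted p from 0.493 to 0.949.

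Over the 9 measured members, limma called 0 higher and 2 lower in the A comparison, where it called 10.8% of all 18172 profiles higher and 10.2% lower. The members were Impdh2 and Atic, and at an unadjusted p under 0.05 the counts in limma were also 0 and 2, against 15.6% and 17.5% of all profiles. In the B comparison it called 2 members higher in Ind-8 (Gmpr and Gmpr2) and 2 lower (Gmps and Atic), against 15.9% and 14.8% of all profiles. In the C comparison it called 1 member higher in tI-3 (Gmps) and 1 lower (Gmpr2), against 10.3% and 15.6% of all profiles. The median log2 change over the members was 0.022 in A, −0.10 in B and 0.0038 in C, beside −0.056, −0.056 and 0.031 over all profiles. The members' median depended on the scaling: with the arrays centred on their medians it was −0.023, −0.14 and 0.0009, beside −0.10, −0.098 and 0.028 over all profiles, and with quantile normalization 0.017, −0.24 and 0.11, beside −0.025, −0.024 and 0.011.

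The rank product test at a percent of false positives (pfp) under 0.05 called 0 of the 9 members in each comparison, while it called 3.69% of all profiles in A, 2.09% in B and 2.27% in C. Its lowest pfp among the members was 0.452, for lower Atic in the A comparison. At an unadjusted p under 0.05 it counted 0 members higher and 1 lower in A, against 11% and 9.36% of all profiles, and 0 in either direction in B, against 10.8% and 8.77%, and in C, against 8.01% and 10.7%. The test ranks profiles by the size of their change on each pair of arrays, and among the members the widest span of line means was 0.49, for Gmpr.

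**Figure D3:**
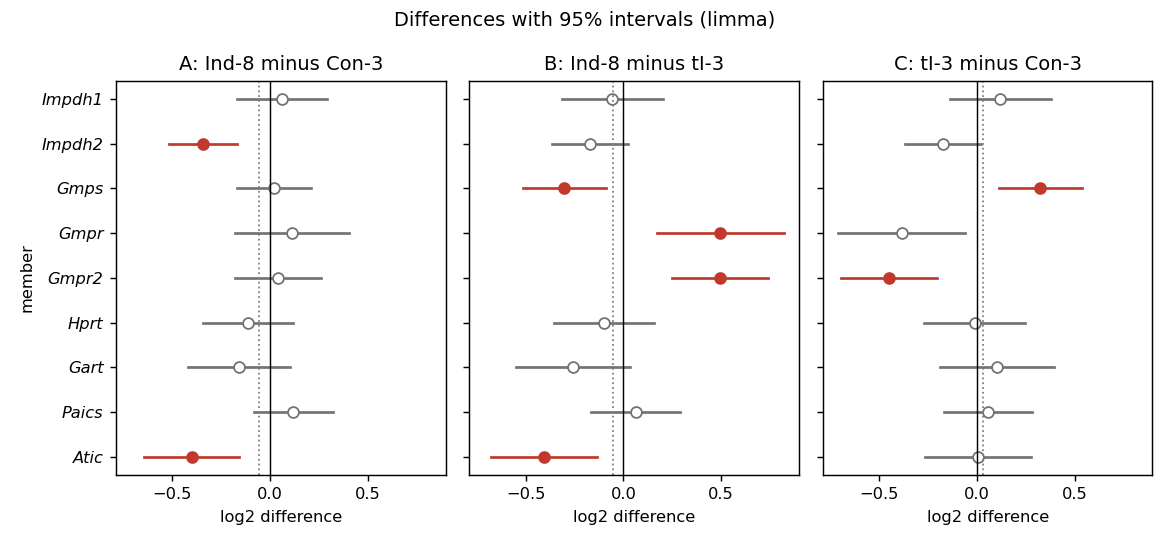
Log2 difference of each measured member (horizontal axis) with its 95% interval from limma, for the A, B and C comparisons. Filled red points passed at an adjusted p under 0.05, open grey points did not, the solid line marks 0 and the dotted line the median of all profiles (−0.056, −0.056 and 0.031).

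The hybridization-control level moved with tI-3. With it as a block, Impdh2 passed in A at −0.34 (limma adjusted p = 0.032) and no other difference of a member did. The block left −0.31 for Atic (limma adjusted p = 0.462), −0.29 for Gmps (0.368), 0.38 for Gmpr (0.452) and 0.40 for Gmpr2 (0.288) in the B comparison. In the C comparison it left 0.32 for Gmps (limma adjusted p = 0.152) and −0.39 for Gmpr2 (0.13). These 7 differences kept their direction, and the part of the hybridization-control level in them was not tested beyond this fit. Without Con-3 replicate 3, the C difference of Gmpr2 was −0.48 (limma adjusted p = 0.0218) and that of Gmpr −0.42 (limma adjusted p = 0.0939), and the B comparison kept its 4 calls, Gmps (limma adjusted p = 0.0431), Gmpr (0.035), Gmpr2 (0.0116) and Atic (0.0365). Impdh1, Gart, Paics and Hprt were not called in any comparison without that array (limma adjusted p from 0.142 to 0.941) or with the block (limma adjusted p from 0.646 to 0.979).

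The steps around the members were read from fixed lists. Of the 9 measured genes for other steps of purine synthesis, 2 were called higher and 2 lower in A, 3 higher and 0 lower in B, and 1 higher and 2 lower in C. At an unadjusted p under 0.05 limma also counted 0 lower in B, as did the rank product test. The median change of this list was −0.17 in A, 0.21 in B and −0.21 in C. Prps1, which makes PRPP, fell by 0.61 in A (limma adjusted p = 0.000826) and by 0.74 in C (limma adjusted p = 0.000444). Prps2, a second PRPP synthetase, fell by 0.68 in C (limma adjusted p = 0.00332). Adss, which opens the branch from IMP to AMP, fell by 0.32 in A (limma adjusted p = 0.0252), and the call was lost without Ind-8 replicate 1 or 3 or Con-3 replicate 2 or 3 (lowest to highest limma adjusted p over the alternatives 0.0108 to 0.0887). Adssl1, the muscle form of that enzyme, rose by 1.38 in A (limma adjusted p = 0.00075) and by 1.17 in C (limma adjusted p = 0.00279). On the Con-3 arrays it was dim, at 4.49 to 4.72 beside a 25th percentile of 4.29 over all profiles. The Ind-8 arrays spread from 5.54 to 6.47. Adk, which salvages adenosine, rose by 0.40 in A (limma adjusted p = 0.00869). Its line means were 10.83 in Ind-8, 10.43 in Con-3 and 10.23 in tI-3. The 3 genes called higher in B were Prps2, Aprt and Adk, and these calls were all lost with the hybridization-control block.

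The fixed list of purine breakdown and interconversion also holds Nt5c3, whose product is known to act on pyrimidine nucleotides. Of 13 measured, 3 were called higher and 1 lower in A, 5 and 2 in B, and 3 and 3 in C, and the median change was 0.11, 0.17 and 0.092. Without Nt5c3, an alternative chosen after the data were seen, 12 genes remain, with 3 called higher and 0 lower in A, 4 and 2 in B, and 3 and 2 in C, and medians of 0.14, 0.052 and 0.11. At an unadjusted p under 0.05 limma then counted 1 lower in A and the rank product test 0. Xdh, the oxidase that ends in urate, read 5.42, 5.37 and 4.91 in Ind-8, 4.42, 4.86 and 4.61 in Con-3, and 6.46 and 6.30 in tI-3. Its tI-3 values were above all others, and it rose by 1.75 in C (limma adjusted p = 9.15e-05). Nt5c3, the pyrimidine nucleotidase, fell by 0.47 in A (limma adjusted p = 0.00557) and by 1.06 in C (limma adjusted p = 0.00011), and Ada, adenosine deaminase, fell by 1.06 in C (limma adjusted p = 0.000123). Ampd3, an AMP deaminase that returns AMP to IMP, rose by 0.97 in A (limma adjusted p = 0.000744). Xdh was also called higher in A, a call lost in 5 of 17 alternative fits. Ada, Ampd3, Nt5c and Nt5c3 were among the 5 called higher in B, and Xdh and Uox were the 2 called lower. The B calls of these 6 genes were all lost with the hybridization-control block.

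The one-carbon list holds enzymes that make or remove the formyl groups used by GART and ATIC. It also holds enzymes for the serine and folate behind them. Of 11 measured, 0 were called higher and 8 lower in A, 3 higher and 2 lower in B, and 0 higher and 7 lower in C, with median changes of −0.57, 0.038 and −0.75. At an unadjusted p under 0.05 both limma and the rank product test counted 0 higher in A and in C. Mthfd2, of the mitochondrial folate route, read 9.30, 9.02 and 9.52 in Ind-8, 10.12, 10.31 and 10.44 in Con-3, and 9.30 and 9.19 in tI-3. Con-3 was above both p53-restored lines, which overlapped, and Mthfd2 fell by 1.01 in A (limma adjusted p = 0.000563) and by 1.05 in C (limma adjusted p = 0.000684). Psat1, of serine synthesis, fell by 1.11 in A (limma adjusted p = 0.000113) and by 0.71 in C (limma adjusted p = 0.00222). Mthfd1l fell by 0.57 in A (limma adjusted p = 0.00179) and by 0.96 in C (limma adjusted p = 0.000156), and in C Psph, Aldh1l2 and Shmt2 fell by 1.19, 1.10 and 0.97. Within this list the rank product test called 4 genes in A and 2 in C.

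Pyrimidine synthesis, the parallel route to the other nucleotides, gave 0 of 11 measured genes higher and 5 lower in A, 3 higher and 1 lower in B, and 0 higher and 9 lower in C. At an unadjusted p under 0.05 limma counted 1 higher in A and 0 in C, and the rank product test 0 in both. The median change was −0.37 in A, 0.17 in B and −0.47 in C. Umps, which makes UMP, fell by 0.78 in A (limma adjusted p = 0.000227) and by 0.66 in C (limma adjusted p = 0.000933), Tk1, thymidine kinase, fell by 0.86 in A (limma adjusted p = 0.000562), and Dhodh fell by 0.78 in C (limma adjusted p = 0.00025). Of 7 genes of deoxyribonucleotide supply, 0 were called higher and 2 lower in A, 3 higher and 1 lower in B, and 0 higher and 1 lower in C. At an unadjusted p under 0.05 both tests counted 0 higher in A and in C. Rrm1, the large subunit of ribonucleotide reductase, fell by 0.55 in A (limma adjusted p = 0.00301) and by 0.49 in B (limma adjusted p = 0.0089), and Dut, which keeps dUTP low, fell by 0.42 in A (limma adjusted p = 0.0056). Samhd1, which breaks down dNTPs, was the 1 called in C, where it fell by 0.64 (limma adjusted p = 0.00403), and it was higher in Ind-8 than in tI-3 by 0.46 (limma adjusted p = 0.0209). Rrm2b, a small subunit that p53 is known to induce, was higher in Ind-8 than in tI-3 by 0.70 (limma adjusted p = 0.0261). Its line means were 5.98 in Ind-8, 5.62 in p53-null Con-3 and 5.27 in tI-3, and it was not called in A or C. Dguok, a mitochondrial kinase, was higher in Ind-8 than in tI-3 by 0.43 (limma adjusted p = 0.0245). The 4 B calls of this list were all lost with the hybridization-control block, and over 17 alternative fits that of Rrm1 was lost in 2, that of Rrm2b in 3, that of Samhd1 in 4 and that of Dguok in 5.

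**Figure D4:**
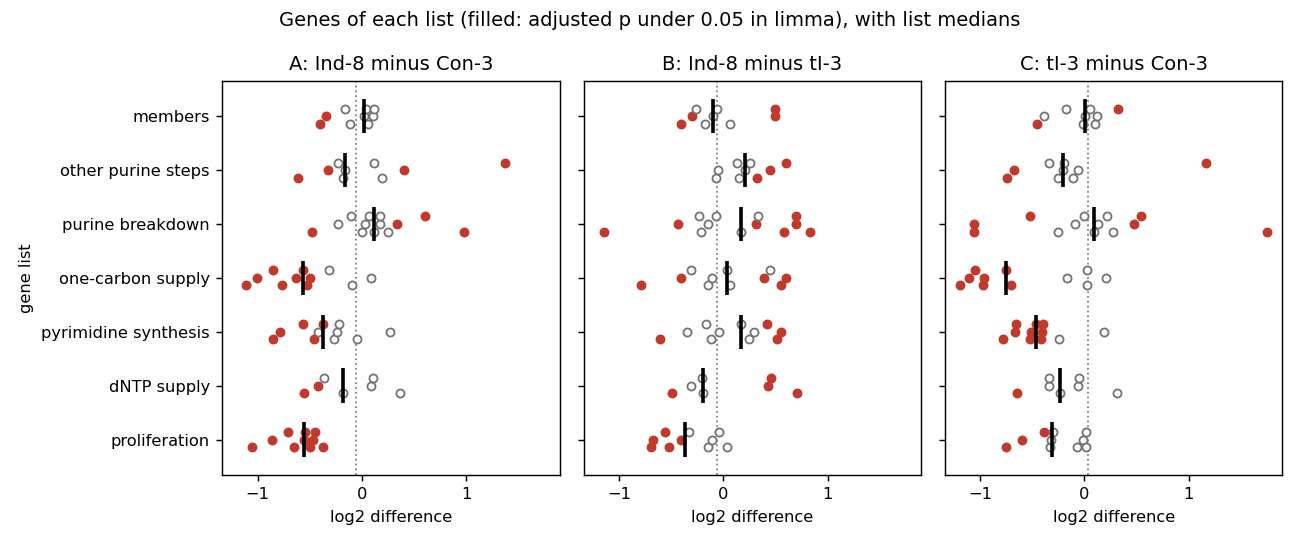
Log2 difference (horizontal axis) of every measured gene of the members and of 6 other lists, for the A, B and C comparisons. Filled red points passed at an adjusted p under 0.05 in limma, thick bars are list medians and the dotted line is the median of all profiles; the medians of the one-carbon list are −0.57 in A and −0.75 in C, those of the members 0.022 and 0.0038.

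Proliferation markers were lower in Ind-8 than in Con-3. All 10 measured markers were called lower in A (the largest change was that of Birc5, −1.06), 5 in B and 3 in C, and 0 were called higher in any comparison or counted higher at an unadjusted p under 0.05 by limma or the rank product test. Their mean log2 value was 10.28, 10.02 and 10.24 on the Ind-8 arrays, 10.80, 10.78 and 10.83 on the Con-3 arrays, and 10.55 and 10.50 on the tI-3 arrays. In this mean the lines stood in the order of Impdh2, lowest in Ind-8 and highest in Con-3. Single markers departed from it. Cdk1 had its lowest line mean in tI-3 (11.87, against 11.91 in Ind-8). Bub1 and Plk1 had their highest in tI-3 (9.73 and 9.80, against 9.72 and 9.785 in Con-3). The brightest of these profiles was Cdk1, with a mean of 12.11, and all 10 were above the median profile. Fewer cycling cells and less RNA per cell cannot be told apart in such bulk samples, and the part of either in the members' values was not tested.

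Of 4 transcription factors known to act on purine synthesis genes, Myc was the 1 called. Its values were 10.41, 10.06 and 10.21 in Ind-8, 10.96, 10.59 and 10.76 in Con-3, and 10.08 and 9.67 in tI-3. Con-3 was above both other lines, and tI-3 overlapped Ind-8. Myc fell by 0.89 in C (limma adjusted p = 0.00229) and by 0.54 in A (limma adjusted p = 0.0198), and the A call was lost without Ind-8 replicate 2 or 3 or Con-3 replicate 1 or 3 (lowest to highest limma adjusted p over the alternatives 0.00188 to 0.0806). Mycn, Max and Atf4 were not called, and none of the 4 was called in B, where limma counted 1 higher and 1 lower at an unadjusted p under 0.05 and the rank product test 0. The part of Myc in the members' values was not tested.

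The counts of these lists were read again without Con-3 replicate 3. In A, where the block gives the same fit, limma called 6 genes of the one-carbon list lower, 4 of pyrimidine synthesis, 2 of deoxyribonucleotide supply, 8 proliferation markers, 1 gene of the other steps of purine synthesis and 1 of purine breakdown and interconversion, Nt5c3. Of the last 2 lists 2 and 1 were called higher. In C it called 7 of the one-carbon list, 8 of pyrimidine synthesis, 1 of deoxyribonucleotide supply and 2 proliferation markers lower without that array, and 7, 4, 1 and 2 with the block. Of the other steps of purine synthesis it called 1 higher and 2 lower in C in both fits, and of purine breakdown and interconversion 3 higher and 3 lower without that array and 2 and 2 with the block. In B, leaving out that array changed only the count of purine breakdown and interconversion, to 4 higher and 2 lower. The block left 0 genes of these 6 lists called in B in either direction, while at an unadjusted p under 0.05 limma counted with it 3 one-carbon genes higher and 1 lower, 2 and 1 of pyrimidine synthesis, 2 and 0 of deoxyribonucleotide supply, 0 and 3 of the proliferation markers, 3 and 0 of the other steps of purine synthesis, and 3 and 1 of purine breakdown and interconversion. The B medians with the block, main fit in brackets, were 0.030 (0.038) for the one-carbon list and 0.091 (0.17) for pyrimidine synthesis. They were −0.22 (−0.19) for deoxyribonucleotide supply and −0.30 (−0.37) for the proliferation markers. For the other steps of purine synthesis the B median was 0.24 (0.21), and for purine breakdown and interconversion 0.14 (0.17). The rank product test was not run with the block.

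The profiles most like Impdh2 were sought by Pearson's r over the 8 arrays, among 5061 profiles above the 25th percentile whose line means spanned at least 0.5. The 6 most alike were Xpo7 (r = 0.994), Rtel1 (0.991), a model transcript with no gene name here (0.991), Suv39h1 (0.990), Tfap2a (0.988) and Ankle1 (0.987). Suv39h1, a histone methyltransferase, had line means of 8.46 in Ind-8, 9.35 in Con-3 and 8.98 in tI-3. The 3 most opposed were Traf4 (r = −0.994) and 2 profiles of H13 (−0.994 and −0.993). These values describe arrays that fall into 3 lines, so they chiefly record the order of the line means and carry no p.

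The number of arrays limits the precision. tI-3 has 2 arrays, and a member's error in B and C draws on the spread of the other lines. The p-values measure the spread between preparations of the same 3 lines.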

How the data were processed

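The deposited values are log2 expression values that the authors computed from the scanned arrays by RMA, with probes regrouped by RefSeq transcript in a custom chip description file. Of 22587 probe sets, 64 Affymetrix controls were dropped, probe sets with identical values to 6 decimals were counted once, and 18290 of 22523 probe sets (81.2%) were named through a RefSeq gene table of GRCm38.p6. limma 3.58.1 in R 4.3.3 fitted 3 line means across the 8 arrays, p-values were adjusted over 18172 profiles by Benjamini-Hochberg, and calls needed an adjusted p under 0.05. The rank product test of the study's methods was rewritten in Python 3.11.15 with 100 permutations. Both were run on simulated data with planted changes larger than any difference of a member. Those runs do not show whether changes of the members' size would be called. A gene is read by its profile with the highest mean. Every member is named, and of each other list at most the 6 called genes with the largest change, beside the label checks and the profiles most like Impdh2. The members and lists were chosen with earlier results of these data known. Alternatives changed the scaling, filters, prior, block, samples and test. Arrays have no read depth, and their number limits the precision.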

Additional observations from a re-analysis of the deposited data

Results flagged for a closer look

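The ribosomal control probe sets, which are left out of the main fit, read higher on 1 array than on the others. On Con-3 replicate 3 the 3′ probe set for 18S ribosomal RNA read 11.38 and the 5′ probe set 10.97, while on the 7 other arrays they lay between 6.59 and 7.67 and between 4.55 and 5.25. The calls of members without this array are given with the results.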

How the results depend on the processing

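Over 17 alternative limma fits, the 8 called differences of members kept their direction, and 1, Impdh2 in A, passed in all 17 (−0.39 to −0.32, limma adjusted p from 0.00222 to 0.0453). Also followed were the 100 called differences of the label checks and of at most 6 genes of each other list, cell type markers included, not all of which are printed in the results. Of these, 50 passed in every fit that held the profile and none turned its sign. With the hybridization-control block 1 of the 8 and 52 of the 100 passed.

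With that block the members called were 1 lower in A, 0 higher and 0 lower in B, and 0 higher and 0 lower in C, and the profiles called were 1435 higher and 1343 lower in A, 416 higher and 167 lower in B and 883 higher and 1603 lower in C. Tests of only the 2 lines compared called 0 members lower in B, where Atic (limma adjusted p = 0.0513) and Gmps (0.0604) missed, and 2525 profiles lower, against 2 members and 2691 profiles in the main fit. The rank product test called 0 members in each comparison and direction, also with every probe set kept and without any 1 Ind-8 or Con-3 array. At a pfp under 0.01 it also called 0, a count already fixed by the 0 at a pfp under 0.05. At a pfp under 0.05 the test called 394 profiles higher and 276 lower in A, 298 and 82 in B, and 116 and 296 in C. The cause was not tested. Leaving out 1 array at a time, the members called by limma ranged from 0 to 0 higher and 1 to 2 lower in A, 0 to 2 and 0 to 2 in B, and 0 to 1 and 0 to 2 in C. The profiles called ranged from 1407 to 1873 higher and 1270 to 1733 lower in A, from 1458 to 2988 and 887 to 2828 in B, and from 928 to 1822 and 1595 to 2820 in C, with fewer arrays in each such fit. Without tI-3 replicate 2 the counts were lowest in B and C. A line left with 1 array was assumed to vary like the others.

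Centring the arrays on their medians moved the share of higher calls in A from 51.5% to 41.3%. In B the share moved from 51.8% to 42.7%, and in C from 39.8% to 39.1%. Deviations of same-numbered arrays had r from −0.232 to 0.367, and those of differently numbered arrays from −0.401 to 0.256. Each deviation is taken from its own line's mean, which ties the arrays of a line to each other. These values therefore cannot decide whether the numbers pair the samples. With the replicate number as a block, 2194 profiles were called higher and 2027 lower in A, 3233 and 3371 in B, and 2222 and 2970 in C. The block called 3 members lower in B, adding Gart (−0.35, limma adjusted p = 0.0286), and changed no other call of a member.

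The sign turned in 18 fits of 8 differences that had not passed. Without 1 array, Impdh1 ranged from −0.013 (without Ind-8 replicate 3) to 0.16 in A and from −0.13 to 0.042 (without Ind-8 replicate 2) in B, and became 0.015 in B with the hybridization-control block. In A with centred arrays, Gmps became −0.023 and Gmpr2 −0.0023, and without 1 array Gmps ranged from −0.025 (without Ind-8 replicate 3) to 0.055 and Gmpr2 from −0.014 (without Ind-8 replicate 1) to 0.10. In C, Hprt became 0.099 with quantile normalization, 0.019 with the replicate block, and without 1 array ranged from −0.066 to 0.042, above 0 without Con-3 replicate 1 or 3 or tI-3 replicate 2. Gart became −0.046 in C with the hybridization-control block, and Paics −0.030 in B with it and −0.043 with quantile normalization. Atic became −0.058 in C with that block, and without 1 array ranged from −0.089 to 0.097, below 0 without tI-3 replicate 2 or Con-3 replicate 1. No member had several profiles, so its second profile could not be tried.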
